A study of Mus musculus with 48 samples.

Results

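Liver transcripts of the organic ion and drug transporters were measured in 48 male mice of 6 genotype-by-diet groups, and 49 genes of the Slco, Slc22a and Abcc families formed the set described here. They were chosen by name, as genes on the array whose symbol starts with Slco, Slc22a or Abcc followed by a digit. Earlier results of these data were known when these families were chosen. They comprised 15 Slco, 24 Slc22a and 10 Abcc genes, read by 95 of its 56605 non-control probes. Each gene was read by its brightest probe, and levels are log2 median Cy3 intensities after quantile normalization over the 48 arrays. Detection was taken from the scanner software's flag for signal well above background, and a probe entered the test if any group had 4 or more of its 8 arrays flagged. By this filter 36 of the 49 genes were tested (9 Slco, 18 Slc22a and 9 Abcc), among 33323 probes tested on the whole array, and 26 of them were well above background on all 48 arrays.

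Hepatocytes clear charged molecules from blood in steps that these families share. Slco genes encode organic anion transporting polypeptides, which bring bile acids, bilirubin conjugates, thyroid hormones, steroid conjugates and many drugs across the sinusoidal membrane. Slc22a genes encode carriers of organic cations, organic anions and zwitterions such as ergothioneine and carnitine, and several of them are best known from the kidney tubule. Abcc genes encode ATP-driven pumps, of which Abcc2 exports conjugates into bile and Abcc3 and Abcc4 return them to blood, together with the sulphonylurea receptor subunits and some members of little known substrate. The nuclear receptor Pparα is a fatty acid sensor of the hepatocyte, and the xenobiotic receptors Car (Nr1i3) and Pxr (Nr1i2) and the stress-responsive transcription factor Nrf2 (Nfe2l2) are known regulators of transporter genes.

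The 13 genes that did not pass the filter were Abcc8, Slc22a2, Slc22a12, Slc22a14, Slc22a19, Slc22a20, Slc22a22, Slco1a5, Slco4c1, Slco5a1, Slco6b1, Slco6c1 and Slco6d1. Their brightest probes were well above background on at most 2 arrays of any group and on at most 4 of the 48. Several of these are transporters known from kidney or testis, among them Slc22a12, the urate exchanger, and Slc22a2, the renal organic cation transporter. Of 6 kidney tubule markers, Umod, Slc12a1, Slc12a3 and Kap were not tested for the same reason, Slc34a1 was well above background on 35 of the 48 arrays and Aqp2 on all 48. The 8 hepatocyte markers (Alb, Ttr, Apoa1, Cps1, Cyp2e1, Serpina1a, Tat and Ass1) were well above background on all 48 arrays.

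The mice were C57Bl6J males of 20 weeks, either wild-type (WT), lacking Pparα in hepatocytes (Pparα hep-/-, floxed Pparα with Cre under the albumin promoter) or lacking Pparα in every cell (Pparα-/-). Each genotype was given a control diet (CTRL) or a high-fat diet with 60% of calories from fat (HFD), for 12 weeks per the labels, with all groups kept at thermoneutrality, and each of the 6 groups had 8 mice. Per the study's methods, both deletion lines were bred in-house and WT mice came from a supplier, so genotype and origin cannot be told apart in the comparisons with WT. RNA was taken from whole liver, so that fewer cells of a type and less RNA per cell cannot be told apart.

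The 2 Ppara probes were lower in the deletion lines in 7 of 8 comparisons with WT, with log2 differences of -0.42 to -1.29, and the other one was not called (-0.10 in Pparα hep-/- mice on CTRL). Neither probe was placed relative to the deleted exon, so these levels are a weak check of the labels. Y-linked Eif2s3y, Ddx3y, Kdm5d and Uty were well above background on all 48 arrays and Xist on 1. The arrays had 28234 to 38217 spots well above background, and their estimated weights ran from 0.189 to 2.53. The weight was below 0.5 for 5 arrays, WT HFD replicates 2 and 6, WT CTRL replicate 6, Pparα-/- CTRL replicate 3 and Pparα hep-/- CTRL replicate 1, all of the first of the 2 wash batches named in the labels. Each group had 3 to 5 arrays in each wash batch, and the wash batch was a term of the fit.

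A gene was called when limma's adjusted p, by Benjamini-Hochberg over the 33323 probes of a comparison, was at most 0.05. Of the 36 tested genes, 31 were called in at least 1 of 12 comparisons, and Abcc1, Slc22a6, Slc22a8, Slc22a13 and Slco1a6 in none. The share of all probes called in at least 1 of them is not at hand, so the 31 have no reference. A single comparison called up to 45.7% of all probes. By its dimmer probe Abcc1 was called against WT on HFD in Pparα hep-/- (0.36) and Pparα-/- mice (0.30). HFD against CTRL called 8 genes in WT mice (22.2% of the genes, against 18.7% of all probes), 7 of them higher and 1 lower, beside shares over all probes of 8.6% and 10.1%. The diet called 10 genes in Pparα hep-/- mice (27.8%, against 20.2%), 5 higher and 5 lower (9.46% and 10.8% of all probes). It called 15 in Pparα-/- mice (41.7%, against 24.8%), 9 higher and 6 lower (12.2% and 12.6%). On CTRL, 9 genes differed between Pparα hep-/- and WT mice (25%, against 24.7%), 6 higher and 3 lower (11.3% and 13.4%), a share near that of the whole array. There were 11 between Pparα-/- and WT mice (30.6%, against 34.2%), 7 higher and 4 lower (15.6% and 18.7%), again near it.

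On HFD the counts were larger. Between Pparα hep-/- and WT mice 18 genes were called (50%, against 26.7% of all probes), 8 higher and 10 lower (13.3% and 13.4% of all probes). For Pparα-/- against WT mice 23 were called (63.9%, against 45.7%), 12 higher and 11 lower (21.8% and 24%). Fewer separated the deletion lines, Pparα-/- against Pparα hep-/-, with 4 on CTRL (11.1%, against 25.2%), 2 higher and 2 lower (12.2% and 13%), and 7 on HFD (19.4%, against 30.6%), 5 higher and 2 lower (15.2% and 15.4%). The diet response differed from that of WT mice in 3 genes in Pparα hep-/- mice (8.33%, against 10.4%), each lower, where 4.62% of all probes were higher and 5.79% lower. It differed in 8 in Pparα-/- mice (22.2%, against 14.3%), 4 each way (6.93% and 7.42%), and between the deletion lines in 2 (5.56%, against 3.42%), 1 each way (2.12% and 1.3%). The median change of the 36 genes lay between -0.12 and 0.09 on the log2 scale in every comparison, beside medians of all probes between -0.03 and 0.01. These comparisons share groups and are therefore not independent.

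**Figure D1:**
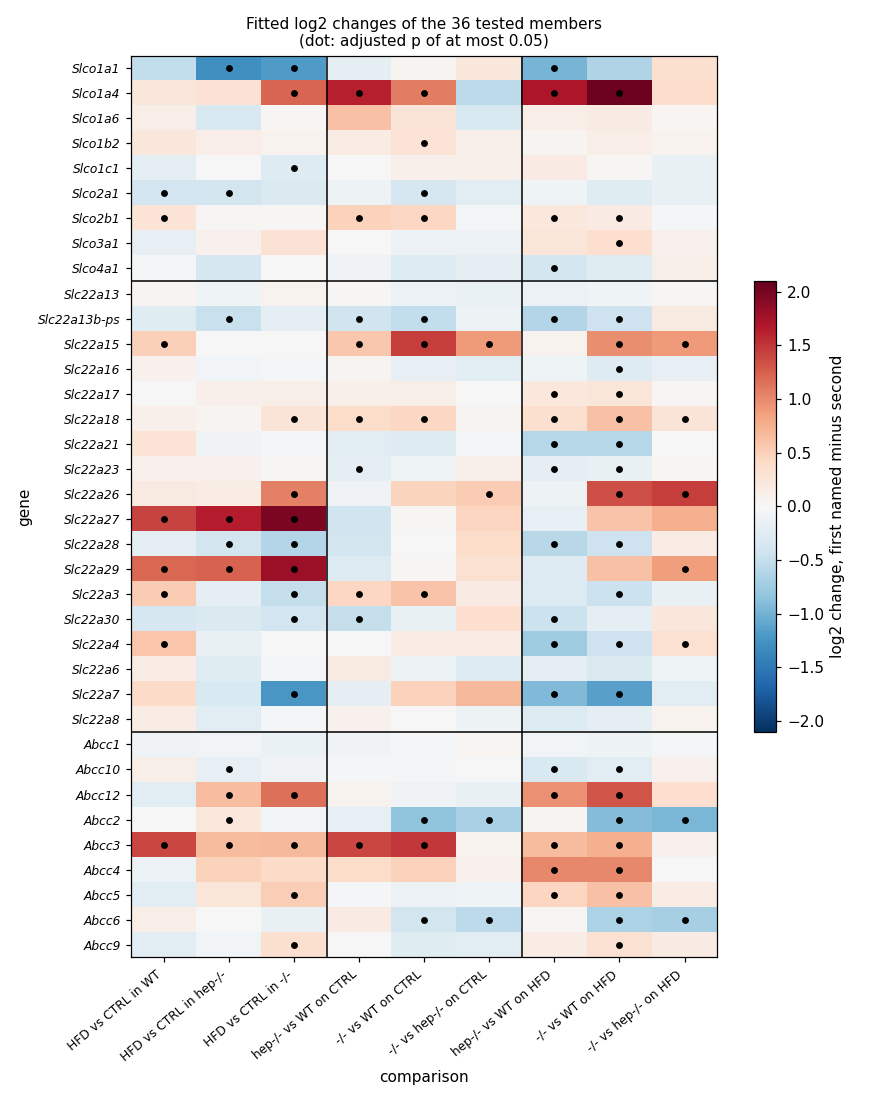
Fitted log2 differences of the tested transporter genes (rows, grouped by family) in the 9 comparisons of diet and genotype (columns), with red for higher and blue for lower in the first group named and a dot where the adjusted p was at most 0.05. Of the 36 genes, 23 carry a dot for Pparα-/- against WT mice on HFD and 8 for HFD against CTRL in WT mice.

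Among the Slco uptake carriers, Slco1a4 was higher in both deletion lines than in WT mice on either diet. Slco1a4 is a sinusoidal carrier of bile acids, steroid conjugates and digoxin. In WT mice its lowest, median and highest levels were 8.44, 8.80 and 9.57 on CTRL and 7.67, 9.26 and 10.46 on HFD. In Pparα hep-/- mice they were 9.71, 10.61 and 11.00 on CTRL and 10.42, 10.98 and 11.25 on HFD, and in Pparα-/- mice 8.90, 10.16 and 10.69 on CTRL and 10.53, 11.21 and 11.98 on HFD. On CTRL every Pparα hep-/- mouse lay above every WT mouse, and on HFD every Pparα-/- mouse did, whereas the other comparisons with WT overlapped. Groups did not overlap in 1 gene (2.78%, against 1.31% of all probes) for Pparα hep-/- against WT mice on CTRL and in 8 genes (22.2%, against 6.93%) for Pparα-/- against WT mice on HFD.

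The Slco1a4 difference from WT on CTRL was 1.63 ± 0.26 (SE) on the log2 scale in Pparα hep-/- mice (adjusted p = 6.84e-06) and 1.08 ± 0.27 in Pparα-/- mice (adjusted p = 0.00148). On HFD it was 1.69 ± 0.23 (adjusted p = 5.16e-07) and 2.06 ± 0.23 (adjusted p = 6.38e-10), the latter a 4.16-fold difference in signal. HFD raised Slco1a4 by 1.23 ± 0.24 in Pparα-/- mice (adjusted p = 0.000191), with differences of group means of 0.56 in the first and 1.82 in the second wash batch. Its diet responses in WT (0.25 ± 0.27) and Pparα hep-/- mice (0.31 ± 0.22) were not called, and the response in Pparα-/- mice exceeded that in WT mice by 0.98 ± 0.35, with an adjusted p of 0.0546 and a 95% interval from 0.27 to 1.70. These 5 calls of Slco1a4 were kept in each of 10 alternative fits.

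Slco1a1, a carrier of bile acids and steroid conjugates long known to be expressed more in male than in female liver, had a tail of low mice in several groups. Lowest, median and highest levels of Slco1a1 in WT mice were 7.69, 12.85 and 13.26 on CTRL and 9.34, 12.26 and 12.62 on HFD. In Pparα hep-/- mice they were 8.89, 12.44 and 12.68 on CTRL and 9.49, 11.35 and 12.34 on HFD, and in Pparα-/- mice 12.31, 12.68 and 12.75 on CTRL and 10.28, 11.59 and 12.31 on HFD. A single mouse in each of 3 groups stood far below the rest, and on HFD the deletion lines had the lowest medians. On HFD Slco1a1 fell by 1.20 ± 0.36 in Pparα-/- mice (adjusted p = 0.0114), where the CTRL and HFD groups did not overlap, as was so for 4 of the 36 genes (11.1%, against 1.44% of all probes). The diets overlapped for each of the 36 genes in WT and in Pparα hep-/- mice, where 0.603% and 0.591% of all probes did not overlap.

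In Pparα hep-/- mice the fall of Slco1a1 on HFD was fitted at -1.29 ± 0.34 (adjusted p = 0.00599), and on HFD these mice differed from WT by -0.97 ± 0.35 (adjusted p = 0.0366). Differences of group means for these were 0.37 and 0.07 in the first wash batch and -1.66 and -1.45 in the second. The first-batch values turned on single arrays of low weight, and without the 5 such arrays they were -0.83 and -0.71. None of the 3 Slco1a1 calls was kept without array weights, where the change in Pparα-/- mice was -1.11 (adjusted p = 0.183), that in Pparα hep-/- mice -0.64 (adjusted p = 0.653) and the difference from WT -0.56 (adjusted p = 0.587). The last of these was lost in 5 of 10 alternative fits and by the gene's dimmer probe (-0.90, adjusted p = 0.057). On CTRL the differences of Pparα hep-/- and Pparα-/- mice from WT, -0.19 (95% interval -0.98 to 0.59) and 0.05 (-0.77 to 0.87), were not called.

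Slco1b2, the rodent counterpart of the human hepatic OATP1B carriers of bilirubin conjugates and statins, had medians of 15.84 in WT mice on CTRL and 16.00 to 16.19 in the other 5 groups. Its lowest mouse was at 14.77 and its highest at 16.37, and all groups overlapped. It was called in Pparα-/- against WT mice on CTRL, at 0.29 ± 0.11 (adjusted p = 0.0292). The gene's dimmer probe gave larger values, 0.80 for the same comparison, 0.65 for Pparα hep-/- mice and 0.74 for HFD in WT mice.

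Slco2b1, a carrier of steroid sulphates and many oral drugs, rose in WT mice on HFD and was higher in the deletion lines by its brightest probe. In WT mice it ran from 12.88 over a median of 13.39 to 13.78 on CTRL and from 13.56 over 13.68 to 14.00 on HFD, and the 4 groups of the deletion lines had medians of 13.86 to 13.98. HFD raised it by 0.29 ± 0.07 in WT mice (adjusted p = 0.00443), and the differences from WT on CTRL were 0.49 ± 0.07 in Pparα hep-/- (adjusted p = 1.96e-06) and 0.44 ± 0.07 in Pparα-/- mice (adjusted p = 6.37e-06). Smaller differences on HFD, 0.22 and 0.18, were lost in 3 and 5 of 10 alternative fits, among them 75th percentile scaling of processed signals (0.058 and -0.0034), no array weights (adjusted p = 0.0589 and 0.0755) and the mean of the gene's probes (-0.0525 and -0.10). The dimmer Slco2b1 probe went the other way in Pparα-/- mice, at -0.49 on CTRL and -0.37 on HFD against WT, both called, so the direction depends on the probe. With the mean of the gene's probes the rise in WT mice was 0.15 and not called (adjusted p = 0.31).

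Of the other tested Slco genes, Slco2a1, the prostaglandin transporter, fell by 0.40 in WT and 0.39 in Pparα hep-/- mice on HFD. The latter fall was not called without array weights. Slco1c1, a thyroxine carrier best known from brain capillaries, fell by 0.28 on HFD in Pparα-/- mice. Its probe lay near background, well above it on 6 and 4 of 8 arrays in these mice on CTRL and HFD. Over all groups that held for 23 of the 48 arrays. On HFD, Slco3a1 was higher in Pparα-/- mice (0.35) and Slco4a1 lower in Pparα hep-/- mice (-0.38) than in WT. Dimmer probes of these genes differed in part, with 0.56, 0.09 and 0.12 for Slco3a1 and -0.02 and -0.20 for Slco4a1, of which 0.56 was called. For Slco2a1 they gave -0.61 and -0.11 in WT and -0.40 and -0.09 in Pparα hep-/- mice, the first of each pair called.

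Among the Slc22a genes, Slc22a3 (Oct3), the extraneuronal monoamine transporter, moved in opposite directions on HFD in WT and Pparα-/- mice. WT mice had lowest, median and highest levels of 6.16, 6.90 and 7.09 on CTRL and 6.90, 7.23 and 7.30 on HFD. In Pparα-/- mice they were 6.06, 7.32 and 7.66 on CTRL and 6.51, 6.73 and 7.16 on HFD, and in Pparα hep-/- mice 6.54, 7.03 and 7.50 and then 5.94, 6.99 and 7.58. The groups overlapped throughout. The fitted response was 0.53 ± 0.17 in WT mice (adjusted p = 0.0213) and -0.51 ± 0.15 in Pparα-/- mice (adjusted p = 0.0104). Subtracting the WT response from that of Pparα-/- mice gave -1.04 ± 0.23 (adjusted p = 0.00149). That difference, and the higher level of Pparα-/- than WT mice on CTRL (0.59 ± 0.17, adjusted p = 0.00544), were kept in every alternative fit, while the responses of the single genotypes were lost without array weights (0.42 and -0.41). That of WT mice was also lost without the filter (0.51, adjusted p = 0.0671) and with a replicate block (0.47, adjusted p = 0.0591).

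Slc22a7 (Oat2), a hepatic carrier of organic anions and cyclic GMP, was widely spread within groups. Its lowest, median and highest levels were 10.85, 12.75 and 14.21 in WT CTRL, 12.00, 13.68 and 14.12 in WT HFD, 12.80, 13.49 and 14.13 in Pparα-/- CTRL and 11.57, 12.30 and 13.21 in Pparα-/- HFD mice. Pparα hep-/- mice had 11.02, 12.56 and 13.51 on CTRL and 11.81, 12.32 and 13.88 on HFD. On HFD the WT median was the highest and both deletion lines were lower, with overlap. The differences from WT on HFD were -0.92 ± 0.29 in Pparα hep-/- (adjusted p = 0.016) and -1.14 ± 0.29 in Pparα-/- mice (adjusted p = 0.00115). On HFD Slc22a7 fell by 1.22 ± 0.30 in Pparα-/- mice (adjusted p = 0.00212), and that response minus the WT response was -1.63 ± 0.44 (adjusted p = 0.0109). Of these, the difference of Pparα-/- from WT mice on HFD was kept in every alternative fit, and the other 3 were not called without array weights, at -0.74 for Pparα hep-/- against WT mice (adjusted p = 0.223), -1.08 for the fall (adjusted p = 0.0504) and -1.65 for the difference of responses (adjusted p = 0.0552). The first of these was also lost without the filter. In the first wash batch the fall was -0.60 and the differences from WT on HFD were -0.37 in Pparα hep-/- and -0.62 in Pparα-/- mice, and in the second -1.56, -1.31 and -1.36.

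Slc22a15 (Flipt1), a carrier of zwitterions such as carnosine and ergothioneine, was highest in Pparα-/- mice on both diets. Its brightest probe lies at chr3:101675632-101675691 on the minus strand of mm9. The lowest, median and highest levels there were 8.53, 8.97 and 9.93 on CTRL and 8.48, 9.12 and 9.45 on HFD in Pparα-/- mice. In WT mice they were 6.92, 7.71 and 7.94 and then 7.50, 7.91 and 8.37, and in Pparα hep-/- mice 7.83, 7.97 and 8.29 and then 7.92, 8.07 and 8.37. No Pparα-/- mouse overlapped any mouse of the other genotypes on the same diet. On CTRL that held for 3 of the 36 genes against WT (8.33%, against 6.15% of all probes) and 2 against Pparα hep-/- mice (5.56%, against 4.43%). The difference of Pparα-/- from WT mice was 1.46 ± 0.15 on CTRL (adjusted p = 3.52e-11) and 0.97 ± 0.12 on HFD (adjusted p = 1.71e-08), and from Pparα hep-/- mice 0.89 ± 0.13 (adjusted p = 5.79e-07) and 0.89 ± 0.12 (adjusted p = 4.05e-08).

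The 6 probes of Slc22a15 disagreed. A probe at chr3:101663036-101663095, further towards the 3′ end, gave 1.70 and 1.39 against WT and 1.24 and 1.30 against Pparα hep-/- mice on CTRL and HFD. Nearer the 5′ end, the probe at chr3:101725866-101725925 gave 0.18 and -0.46 against WT and the probe at chr3:101725108-101725167 gave 0.36 and -0.19. Dim probes at chr3:101660821-101660880 and chr3:101701089-101701148, well above background on 24 and 9 of 48 arrays, gave 0.20 and 0.24 on CTRL. The excess in Pparα-/- mice was thus read in full by 2 of the 6 probes, and averaging them reduced it to 0.69 on CTRL and 0.29 on HFD against WT. Against Pparα hep-/- mice the average gave 0.21 on CTRL, not called (adjusted p = 0.0654), and 0.32 on HFD. No genome was used here to place these probes in exons or transcripts.

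**Figure D2:**
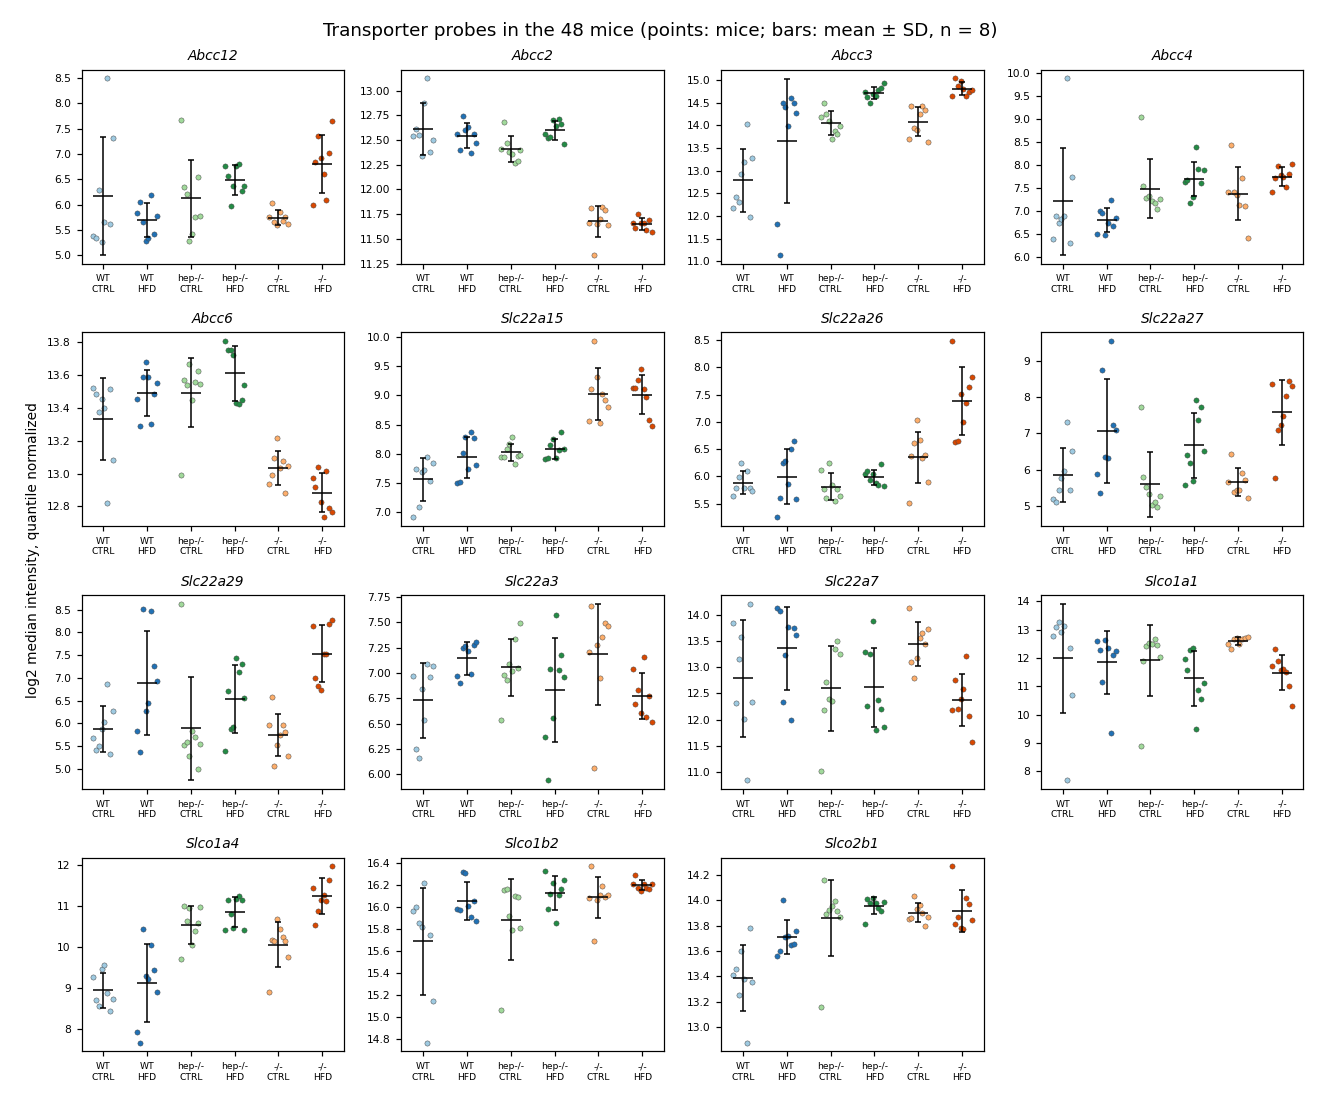
Levels (log2 normalized intensity) of the 15 named transporter genes in each of 48 mice (points) by genotype and diet, with the mean and SD of each group of 8. The Pparα-/- mice stand apart on both diets for Slc22a15 (8.48 to 9.93) and Abcc2 (11.34 to 11.83).

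Of 6 Slc22a genes with neighbouring probes on chromosome 19, the 5 tested ones divided by direction on HFD in Pparα-/- mice. In mm9 the probes of Slc22a26, Slc22a27, Slc22a28, Slc22a29 and Slc22a30 follow each other from position 7855791 to position 8418998, all on the minus strand, beyond Slc22a19, which was not tested. These are rodent-specific relatives of the organic anion transporters, with little known of their substrates. The regions before the starts of Slc22a28, Slc22a29 and Slc22a30 are shown because close neighbours with related sequence went opposite ways. They are the 250 bases before each start from RefSeq on GRCm38.p6, minus strand, with capitals for the 5 runs of at least 12 bases (73 bases in all) that the 3 share, and lie at chr19:8131983-8132232, chr19:8218901-8219150 and chr19:8405106-8405355.
Slc22a28: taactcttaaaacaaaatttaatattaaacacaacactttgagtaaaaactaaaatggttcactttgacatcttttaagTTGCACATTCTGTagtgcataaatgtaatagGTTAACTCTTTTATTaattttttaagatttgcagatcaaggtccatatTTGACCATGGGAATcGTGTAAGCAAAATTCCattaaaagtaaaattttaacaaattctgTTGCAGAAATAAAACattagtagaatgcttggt
Slc22a29: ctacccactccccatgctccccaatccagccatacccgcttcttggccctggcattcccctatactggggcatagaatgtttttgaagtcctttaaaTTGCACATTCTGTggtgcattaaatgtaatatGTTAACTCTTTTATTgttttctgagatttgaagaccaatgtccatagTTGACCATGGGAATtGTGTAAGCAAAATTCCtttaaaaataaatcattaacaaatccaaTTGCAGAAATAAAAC
Slc22a30: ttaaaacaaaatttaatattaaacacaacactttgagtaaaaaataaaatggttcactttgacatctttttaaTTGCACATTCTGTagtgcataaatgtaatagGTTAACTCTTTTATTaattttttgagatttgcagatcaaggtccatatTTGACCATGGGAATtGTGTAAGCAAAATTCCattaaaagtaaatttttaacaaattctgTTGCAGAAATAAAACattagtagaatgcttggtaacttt
Aligned over their length, the Slc22a28 and Slc22a30 windows were identical at 93% of columns, and Slc22a29 matched them at 65.4% and 64.7%.

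Slc22a29 rose on HFD in each genotype. The lowest, median and highest levels were 5.34, 5.78 and 6.86 on CTRL and 5.37, 6.69 and 8.51 on HFD in WT mice, 5.01, 5.56 and 8.63 and then 5.39, 6.63 and 7.44 in Pparα hep-/- mice, and 5.07, 5.78 and 6.59 and then 6.74, 7.53 and 8.27 in Pparα-/- mice. The probe was well above background on 3, 1 and 4 of 8 arrays on CTRL and on 7, 6 and 8 on HFD in that order of genotypes. It was thus dim on CTRL, and only in Pparα-/- mice did the diets not overlap. The rise was 1.21 ± 0.32 in WT (adjusted p = 0.00543), 1.24 ± 0.27 in Pparα hep-/- (adjusted p = 0.00104) and 1.79 ± 0.28 in Pparα-/- mice (adjusted p = 1.44e-05).

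Slc22a27 behaved alike, and its lowest, median and highest levels were 5.10, 5.61 and 7.32 on CTRL and 5.37, 6.72 and 9.54 on HFD in WT mice. Pparα hep-/- mice had 4.98, 5.31 and 7.73 and then 5.58, 6.46 and 7.92, and in Pparα-/- mice 5.23, 5.56 and 6.42 and then 5.78, 7.75 and 8.43. Diets overlapped in each genotype, and the probe was well above background on 2 or 3 of 8 arrays on CTRL and 7 on HFD. It thus passed the filter on dim probes through the HFD groups alone, where it was higher. HFD raised it by 1.41 ± 0.39 in WT (adjusted p = 0.00755), 1.66 ± 0.33 in Pparα hep-/- (adjusted p = 0.000359) and 1.97 ± 0.34 in Pparα-/- mice (adjusted p = 5.76e-05). By the gene's dimmer probe these rises were 0.86, 1.06 and 1.32. No difference of the diet response between genotypes was called for Slc22a27 or Slc22a29, with 95% intervals reaching from -0.82 to 1.61.

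For Slc22a29 the rise in Pparα-/- mice was kept in every alternative fit. For both genes the rises in WT and Pparα hep-/- mice were lost without array weights, to 1.22 and 1.14 for Slc22a27 and to 1.02 and 0.72 for Slc22a29. In Pparα hep-/- mice the differences of means were 0.32 and -0.10 in the first wash batch and 1.89 and 1.45 in the second, for Slc22a27 and Slc22a29. Replicate 1, of low weight, was 1 of 3 CTRL arrays of that group in the first batch, and without it the first values were 1.18 and 1.06. With most CTRL arrays of both genes not above background the sizes of the rises are not exact. On processed, background-subtracted signals they were fitted larger, from 2.27 to 3.48.

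Slc22a26 rose on HFD in Pparα-/- mice. Its levels there were 5.51, 6.39 and 7.04 (lowest, median and highest) on CTRL and 6.62, 7.43 and 8.48 on HFD, and the medians of the other 4 groups were 5.77 to 6.06. On HFD every Pparα-/- mouse lay above every Pparα hep-/- mouse, which held for 4 of the 36 genes (11.1%, against 6.55% of all probes). The difference was 1.45 ± 0.17 (adjusted p = 5.88e-09), and that from WT 1.35 ± 0.19 (adjusted p = 8.37e-08). HFD raised it by 1.06 ± 0.19 (adjusted p = 8.13e-05), with 0.36 in the first and 1.70 in the second wash batch. The response in Pparα-/- mice was larger than in WT (excess of 0.88 ± 0.29, adjusted p = 0.0324) and in Pparα hep-/- mice (excess of 0.91 ± 0.26, adjusted p = 0.042). The first was lost with processed signals (1.03, adjusted p = 0.181) and without the filter (0.93, adjusted p = 0.0504), with 0.13 in the first wash batch (-0.12 without the arrays of low weight) and 1.71 in the second. The second was lost in 7 of 10 alternative fits, and the gene's other tested probe gave 1.35 for HFD in Pparα-/- mice and 1.00 and 1.05 for the 2 differences.

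Slc22a28 and Slc22a30, in contrast, fell on HFD in Pparα-/- mice. Slc22a28 had 11.78, 12.03 and 12.21 (lowest, median and highest) on CTRL and 11.17, 11.40 and 11.72 on HFD, and fell by 0.61 ± 0.14 (adjusted p = 0.00155) with no overlap. Slc22a30 had 14.09, 14.19 and 14.40 on CTRL and 13.42, 13.86 and 14.24 on HFD, and fell by 0.40 ± 0.15 (adjusted p = 0.0418). On HFD both were also lower in Pparα hep-/- than in WT mice (-0.58 and -0.45). In Pparα hep-/- mice Slc22a28 fell by 0.38, which was not called without array weights. The probes used for these genes shared fewer than 45 of 60 bases, but another pair of their tested probes shared 50, so reads of either gene by the other's probes are uncertain.

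Slc22a27 is the only one of these neighbours whose window held the core of the antioxidant response element. The letters TGACNNNGC, with N for any base and searched on both strands, matched in 10.2% of 32851 RefSeq promoters. They matched in 5 of the 34 promoters of the 29 tested genes with a promoter at hand. These belonged to 4 genes, Abcc2, Abcc4, Abcc10 and Slc22a27. Slc22a27 had 2 matches (capitals) at chr19:7966028-7966277 of GRCm38.p6, minus strand.
Slc22a27: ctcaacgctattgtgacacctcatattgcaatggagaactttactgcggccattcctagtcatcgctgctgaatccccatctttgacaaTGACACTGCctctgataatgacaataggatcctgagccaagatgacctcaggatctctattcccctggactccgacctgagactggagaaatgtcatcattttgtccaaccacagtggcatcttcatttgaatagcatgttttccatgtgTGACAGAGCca
A match describes letters and not a bound site. The strict direct repeat bound by Pparα with its partner, AGGTCA and again AGGTCA after 1 free base, matched in none of the 34 promoters and in 0.0335% of all promoters. A single AGGTCA matched in 7 of the 34 promoters (6 of the 29 genes) and in 14% of all promoters. The STAT5 form TTCNNNGAA matched in 6 of the 34 promoters, those of 6 genes (Abcc5, Slc22a15, Slc22a16, Slc22a26, Slco1b2 and Slco2b1), and in 7.02% of all promoters.

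**Figure D3:**
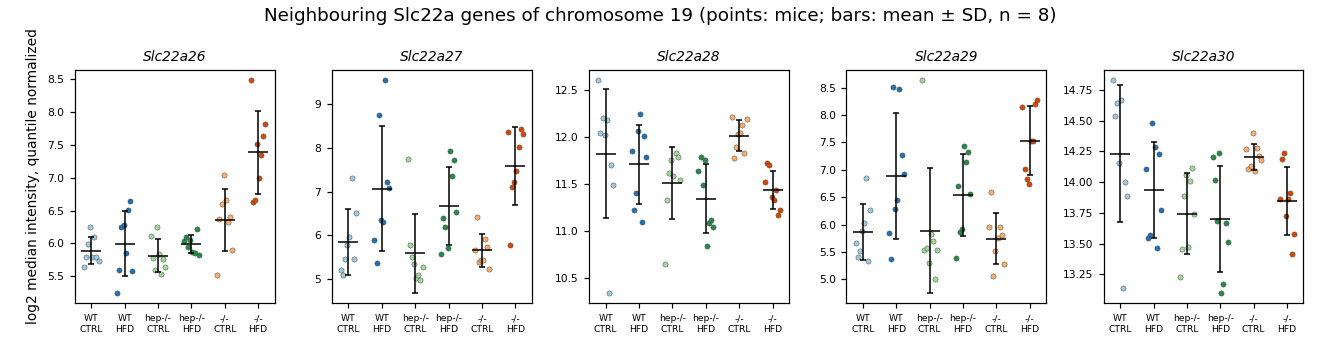
Levels (log2 normalized intensity) of the neighbouring genes Slc22a26 to Slc22a30 of chromosome 19 in the 6 groups, with points for mice and the mean and SD of 8 mice. On HFD in Pparα-/- mice Slc22a26, Slc22a27 and Slc22a29 rose by 1.06 to 1.97 while Slc22a28 and Slc22a30 fell by 0.61 and 0.40.

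Of the export pumps, Abcc2 (Mrp2), which carries bilirubin glucuronides and glutathione conjugates into bile, was lower in Pparα-/- mice than in mice of either other genotype. Its lowest, median and highest levels in Pparα-/- mice were 11.34, 11.68 and 11.83 on CTRL and 11.57, 11.66 and 11.76 on HFD. In WT mice they were 12.34, 12.54 and 13.12 and then 12.36, 12.56 and 12.75, and in Pparα hep-/- mice 12.27, 12.38 and 12.68 and then 12.46, 12.60 and 12.71. No Pparα-/- mouse reached the lowest mouse of the other genotypes. On CTRL, the difference from WT was -0.84 ± 0.07 (adjusted p = 1.91e-13) and that from Pparα hep-/- mice -0.68 ± 0.06 (adjusted p = 7.11e-12). HFD left these at -0.91 ± 0.06 (adjusted p = 6.99e-17) and at -0.97 ± 0.06 (adjusted p = 1.26e-18), and all 4 were kept in every alternative fit. Pparα hep-/- mice differed from WT by -0.17 on CTRL (95% interval -0.30 to -0.03, adjusted p = 0.0621) and 0.05 on HFD (-0.07 to 0.18), neither called.

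Abcc6 (Mrp6), a basolateral pump whose loss causes pseudoxanthoma elasticum, was also lower in Pparα-/- mice. Its levels there were 12.88, 13.04 and 13.21 (lowest, median and highest) on CTRL and 12.73, 12.87 and 13.04 on HFD, and the medians of the other 4 groups were 13.43 to 13.63. On HFD no Pparα-/- mouse overlapped the other genotypes. The gene's dimmer probe, well above background on all 48 arrays, had medians of 11.27 and 11.06 in Pparα-/- mice on CTRL and HFD. Its medians in the other 4 groups were 11.92 to 12.13. The differences from WT were -0.38 ± 0.07 on CTRL (adjusted p = 7.25e-05) and -0.67 ± 0.06 on HFD (adjusted p = 7.6e-12), and those from Pparα hep-/- mice -0.54 and -0.69. The HFD response of Pparα-/- mice minus that of WT was -0.29 ± 0.10 (adjusted p = 0.0396), a call lost without array weights, without the wash term and without the filter.

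Abcc3 (Mrp3), a basolateral pump of glucuronides and bile acids, was higher on HFD in each genotype by its brightest probe and higher in the deletion lines than in WT on CTRL. Its lowest, median and highest levels in WT mice were 11.97, 12.68 and 14.03 on CTRL and 11.15, 14.34 and 14.60 on HFD. In Pparα hep-/- mice they were 13.69, 14.03 and 14.50 and then 14.48, 14.70 and 14.94, and in Pparα-/- mice 13.64, 14.09 and 14.43 and then 14.63, 14.78 and 15.03. In WT mice on HFD, 6 mice lay between 13.98 and 14.60 and 2 far below, at 11.82 and 11.15 (replicates 1 and 2), and the same 2 mice were the lowest of their group for Slco1a4, at 7.93 and 7.67.

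On CTRL, Abcc3 exceeded WT by 1.40 ± 0.24 in Pparα hep-/- (adjusted p = 2.35e-05) and 1.49 ± 0.25 in Pparα-/- mice (adjusted p = 6.28e-06), and both were kept in every alternative fit. HFD raised it by 1.41 ± 0.25 in WT (adjusted p = 7.15e-05), 0.67 ± 0.21 in Pparα hep-/- (adjusted p = 0.0195) and 0.67 ± 0.22 in Pparα-/- mice (adjusted p = 0.0207). These rises were not called without array weights (0.86, 0.64 and 0.73), and those of the deletion lines also not with processed signals (0.51 and 0.55) or without the filter on dim probes. The dimmer Abcc3 probe gave 1.18, 0.57 and 0.35, the last not called (adjusted p = 0.168), and on HFD 0.46 (not called, adjusted p = 0.0624) and 0.47 against WT. In WT mice the differences of means within the wash batches were 0.74 and 0.99. On HFD the excess of Abcc3 over WT was 0.67 for Pparα hep-/- and 0.75 for Pparα-/- mice, or 1.05 and 1.15 without array weights, and 0.28 and 0.43 within the first wash batch without the arrays of low weight. With processed signals the former was 0.50 and not called (adjusted p = 0.0641).

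**Figure D4:**
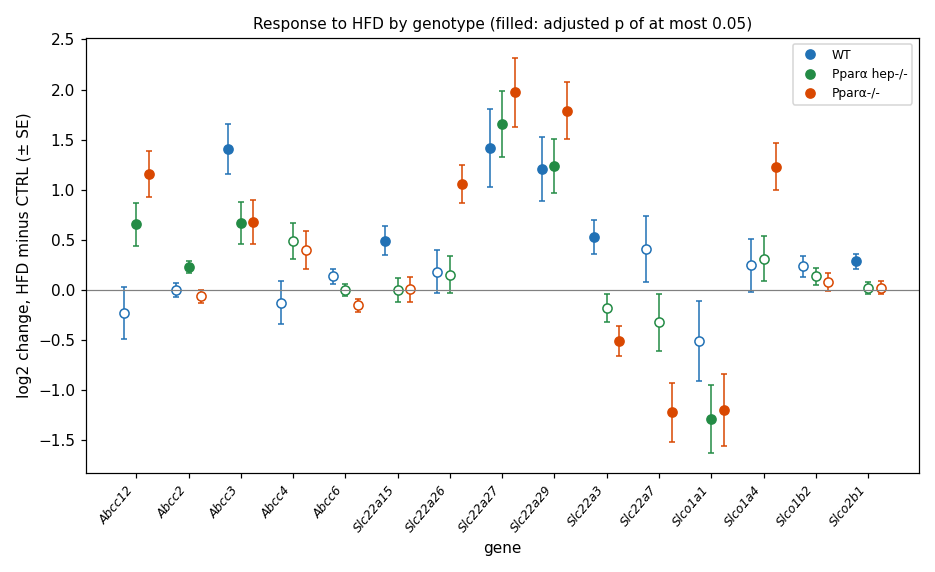
Fitted HFD-minus-CTRL log2 differences of the named transporter genes in WT, Pparα hep-/- and Pparα-/- mice, with SE bars and filled symbols where the adjusted p was at most 0.05. Slc22a27, Slc22a29 and Abcc3 are filled in the 3 genotypes, and Slc22a3 lies on opposite sides of 0 in WT (0.53) and Pparα-/- mice (-0.51).

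Abcc4 (Mrp4), a basolateral pump of bile acids, cyclic nucleotides and steroid sulphates, was higher in the deletion lines on HFD. On HFD its lowest, median and highest levels were 6.47, 6.80 and 7.23 in WT, 7.18, 7.65 and 8.39 in Pparα hep-/- and 7.41, 7.76 and 8.03 in Pparα-/- mice. On CTRL they were 6.31, 6.86 and 9.88, 7.04, 7.28 and 9.05, and 6.42, 7.39 and 8.43. The 9.88 and 9.05 were single mice far above their groups. The differences from WT on HFD were 1.00 ± 0.19 in Pparα hep-/- (adjusted p = 9.05e-05) and 1.01 ± 0.19 in Pparα-/- mice (adjusted p = 1.78e-05), where the groups did not overlap. The former was not called without array weights (0.88, adjusted p = 0.0593).

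Abcc12 (Mrp9), a member of little known function, was dim on CTRL and rose on HFD in Pparα-/- mice. Its levels there were 5.59, 5.72 and 6.03 (lowest, median and highest) on CTRL and 5.98, 6.88 and 7.65 on HFD, with 3 and 8 of 8 arrays well above background. WT mice had 5.26, 5.63 and 8.49 on CTRL and 5.28, 5.71 and 6.19 on HFD, and Pparα hep-/- mice 5.28, 5.996 and 7.67 and then 5.97, 6.47 and 6.81. The rise amounted to 1.16 ± 0.23 (adjusted p = 0.000245), and the excess over WT on HFD to 1.31 ± 0.22 (adjusted p = 4.56e-06). The response in Pparα-/- mice exceeded that of WT by 1.39 ± 0.34 (adjusted p = 0.00492), and these 3 calls were kept in every alternative fit. On HFD, Pparα hep-/- mice exceeded WT by 0.96 ± 0.23 (adjusted p = 0.00131), which was not called without array weights (0.78). Their rise on HFD of 0.65 ± 0.22 (adjusted p = 0.0275) was lost in 4 alternative fits, with -0.15 in the first wash batch (0.44 without replicate 1 on CTRL, of low weight) and 0.81 in the second. Against signals this dim the sizes are not exact, and on processed, background-subtracted signals the rise in Pparα-/- mice was 2.04 and the excess over WT on HFD 2.53.

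Of the other Slc22a and Abcc genes, Slc22a18 and Slc22a21 separated both deletion lines from WT on HFD. Slc22a18, an imprinted gene, was above WT in Pparα hep-/- (0.34) and Pparα-/- mice (0.61), and Slc22a21, a carnitine carrier, was lower in both (-0.60 each), with no overlap in any of these comparisons by the brightest probes. The dimmer Slc22a18 probe gave 0.32 and 0.24 against WT, both called, with overlap. Between Pparα hep-/- and WT mice on HFD, 3 of the 36 genes did not overlap (8.33%, against 1.44% of all probes). Slc22a4, the ergothioneine carrier, rose by 0.59 on HFD in WT mice, and on HFD was lower in Pparα hep-/- (-0.75, no overlap) and Pparα-/- mice (-0.44). Its diet response was below that of WT in both (-0.75 and -0.59, adjusted p = 0.00675 and 0.0262), and the former was not called without array weights. The pseudogene Slc22a13b-ps was lower in the deletion lines on both diets (-0.41 to -0.61).

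Abcc5, an exporter of cyclic nucleotides, and Abcc9, the Sur2 subunit of ATP-sensitive potassium channels known from vessel and muscle cells, rose on HFD in Pparα-/- mice by 0.52 and 0.34. Their responses there exceeded those in WT mice by 0.74 (adjusted p = 0.00727) and 0.57 (adjusted p = 0.0111). The next brightest Abcc5 probe, well above background on all 48 arrays, gave -0.23 for the diet in Pparα-/- mice (adjusted p = 0.0568) and -0.08 for the difference from the WT response, and the 3 dimmer ones gave 0.16 to 0.44 and 0.39 to 0.62, so the direction depends on the probe. Abcc10 was lower in both deletion lines on HFD (-0.32 and -0.23). Slc22a17, the lipocalin 2 receptor, was higher there by 0.22 and 0.25, and called differences of Slc22a16 and Slc22a23 lay between -0.27 and -0.15.

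Within the groups the low Slco1a1 mice were also high for other transporters. In each of the 6 groups the mouse with the lowest Slco1a1 was the highest of 8 for Abcc4, and in 5 of 6 groups it was the highest for Slc22a27, for Slc22a29 and for Abcc12. WT CTRL replicate 6 had Slco1a1 at 7.69, with the next mouse at 10.69, and had Abcc4 at 9.88 and Slc22a27 at 7.32. Pparα hep-/- CTRL replicate 1 had Slco1a1 at 8.89, with the next at 11.90, and had Abcc4 at 9.05, Slc22a27 at 7.73 and Slc22a29 at 8.63. This was noticed in the values and is a description, with no test.

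The same mice were the lowest of their group for the mean of 10 genes known to be higher in male liver (such as Cyp4a12a, Elovl3 and Mup20) in 5 of 6 groups. They were the highest for the mean of 8 genes known to be higher in female liver (such as Cyp2b9 and Cyp2a4), again in 5 of 6. In WT CTRL replicate 6 the male-biased mean was 13.59, against a group median of 15.23, and in Pparα hep-/- CTRL replicate 1 it was 13.37, against 15.17. WT CTRL replicate 6, WT HFD replicate 6 and Pparα hep-/- CTRL replicate 1 were among the 5 arrays of low weight.

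**Figure D5:**
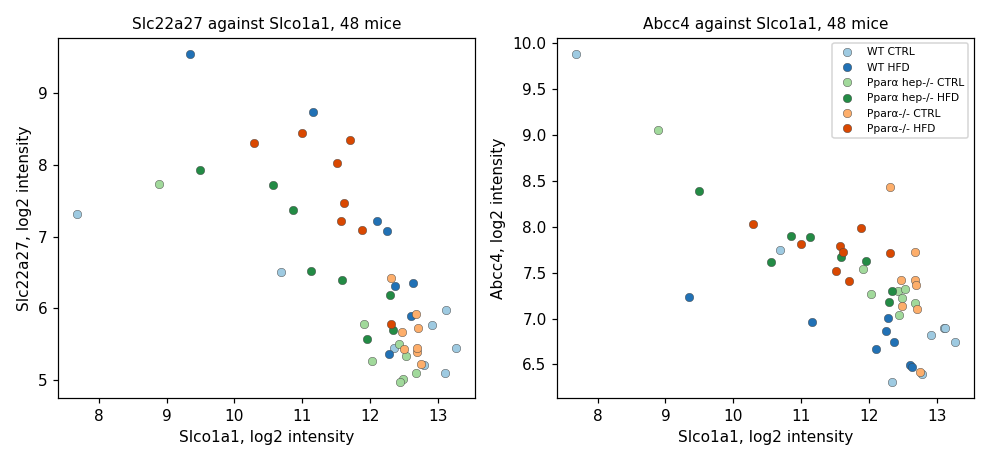
Levels (log2 normalized intensity) of Slc22a27 and Abcc4 against Slco1a1 in 48 mice, coloured by group. The mouse with Slco1a1 at 7.69 has the highest Abcc4 of all (9.88), and the mouse at 8.89 the second highest (9.05).

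Of these 10 male-biased genes, 4 fell on HFD in Pparα hep-/- mice (median change -0.44, with 10.8% of all probes lower) and 9 in Pparα-/- mice (median -0.95, 12.6%), while in WT mice 1 rose and 1 fell (8.6% and 10.1%). Of 8 female-biased genes, 1 rose on HFD in WT mice (8.6% of all probes), 3 rose and 1 fell in Pparα hep-/- mice (9.46% and 10.8%) and 2 rose in Pparα-/- mice (12.2%). On HFD 3 were higher and 4 lower in Pparα-/- than in WT mice (21.8% and 24%). Their part in the changes of Slco1a1, Slc22a27 and Slc22a29 was not tested.

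Other transporters that work beside these families also changed with diet. Of 10 tested, 4 rose and 1 fell on HFD in WT mice, 3 rose and 1 fell in Pparα hep-/- mice, and 6 rose and 1 fell in Pparα-/- mice, where 8.6%, 9.46% and 12.2% of all probes were higher and 10.1%, 10.8% and 12.6% lower. Abcb11, the bile salt export pump, fell in the 3 genotypes (-0.56, -0.47 and -0.63) and was lower in the deletion lines than in WT on both diets (-0.45 to -0.88). Abcb4, the phospholipid flippase of bile (0.44, 0.67 and 0.62), Abcg2 (0.51, 0.42 and 0.38) and Slc47a1, the cation and proton exchanger Mate1 (0.94, 0.31 and 0.53), rose in each. Abcb1b, a multidrug efflux pump, exceeded WT in Pparα-/- mice by 0.80 on CTRL and 1.62 on HFD.

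Among 10 receptors and liver factors, 3 rose on HFD in WT mice (8.6% of all probes), and 2 rose and 1 fell in Pparα hep-/- mice (9.46% and 10.8%). In Pparα-/- mice limma called 0 of the 10, and 3 had an unadjusted p of at most 0.05. Nr1i3 rose by 1.04 on HFD in WT mice and exceeded WT on CTRL in Pparα hep-/- (1.11) and Pparα-/- mice (1.57). Hnf4a, a hepatocyte identity factor, was lower than in WT on CTRL in both lines (-0.36 and -0.43). Neither Nfe2l2 nor Keap1, its inhibitor, was called in these comparisons, which measure transcripts and not activity. Of 9 tested target enzymes of these factors, 2 rose on HFD in WT mice (8.6% of all probes), 5 rose and 1 fell in Pparα hep-/- mice (9.46% and 10.8%) and 3 rose in Pparα-/- mice (12.2%). Against WT mice on HFD, 6 were higher in the hepatocyte deletion (13.3% of all probes), and 4 were higher and 2 lower in Pparα-/- mice (21.8% and 24%). The response differed between the deletion lines in 1, Cyp2b10, where 3.42% of all probes did. Cyp2b10, a marker enzyme of Car activity, rose on HFD by 4.18 in WT and 4.91 in Pparα hep-/- mice, and its value in Pparα-/- mice was -0.45, not called. Cyp3a11, a Pxr target, was lower in Pparα-/- than in WT mice on CTRL (-1.86) and HFD (-1.69). Nqo1, an Nrf2 target, rose in the 3 genotypes by 0.76, 0.78 and 0.73. The part of these factors in the transporter differences was not tested.

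Markers of other liver cells also differed between genotypes. On CTRL, 3 of 8 Kupffer cell markers were higher than in WT in each deletion line and 0 lower (11.3% and 15.6% of all probes higher). Of 8 stellate cell markers 1 was higher in each, near those shares. On HFD, 7 of 8 Kupffer cell markers were higher in Pparα-/- than in WT mice (21.8% of all probes) and 5 of 8 in Pparα hep-/- mice (13.3%), and for stellate cells 8 and 6 of 8. All 6 markers of lipid-associated macrophages were higher in both lines. On HFD the Kupffer cell mean ranged from 9.66 to 11.90 in WT and from 11.23 to 12.11 in Pparα-/- mice, and the stellate cell mean from 9.51 to 12.04 and from 10.68 to 11.65. Of 6 endothelial markers 3 were higher and 1 lower in Pparα-/- mice, and of 6 cholangiocyte markers 1 was higher. Of 8 hepatocyte markers 2 were lower, a share near the 24% of all probes. With HFD against CTRL in Pparα-/- mice, 6 of 8 Kupffer cell, 7 of 8 stellate cell and 5 of 6 lipid-associated macrophage markers rose and 0 fell (12.2% and 12.6% of all probes). The part of these cells in the transporter differences, such as those of Abcc4, Abcc5 and Abcc9, was not tested.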

How the data were processed

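Whole liver RNA of 48 mice was hybridised to 1-colour (Cy3) Agilent arrays, 1 per mouse, and groups and wash batches were taken from the labels. Per the file headers, the authors extracted spot intensities with Agilent Feature Extraction 10.10.1.1, and probe positions are of mm9. The deposited series table holds the authors' log2 values after their filter, wash bath correction and quantile normalization, with the filter not given in the sources used here. It served as an alternative, and the deposited flags (score of 0 or 1) gave detection.

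Median intensities, with outlier spots removed and spots of a probe averaged, were log2 transformed and quantile normalized over the 48 arrays with limma 3.58.1 in R 4.3.3. The raw median intensity of an array was 56 to 91 over a local background of 20 to 36, no spot was saturated, and the number of arrays limits the precision. Probes flagged as detected on 4 or more of the 8 arrays of any group were tested in a single fit of 6 group means with a wash batch term, array weights and empirical Bayes variances, with 195 missing values left out of their probes' fits. P-values were adjusted by Benjamini-Hochberg over 33323 probes within each of 12 comparisons, and the fit was tested on simulated data. Nothing in the labels says more of the replicates than that they are separate mice.

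The transporter genes, the marker lists and the tests were chosen with earlier results of these data known. Genes named with values by group were 9 long known as hepatocyte transporters and those called with a log2 change of at least 1. Slc22a28 and Slc22a30 were added as neighbours after their values were seen. The genes of other lists were named where called. Some genes of the Slc22a family are not reported here. Of the 49 symbols 48 matched a RefSeq symbol, and 29 of the 36 tested genes had a promoter in the RefSeq table of GRCm38.p6, which did not include Abcc1, Abcc3, Abcc6, Slc22a7, Slc22a13b-ps, Slc22a21 and Slco3a1. Alternatives were processed signals scaled to the 75th percentile of each array, normexp background correction with an offset of 50, the authors' table, no array weights, the slide as a block, no wash term, no filter, the mean of a gene's probes, a replicate block, leaving out the 5 arrays of weight below 0.5, values within each wash batch and, chosen after seeing the data, those of the first without the 5 arrays.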

Additional observations from a re-analysis of the deposited data

Results flagged for a closer look

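In 90 groups of 8 mice (15 named genes in 6 groups), 14 had a mouse whose distance to the nearest other exceeded Dixon's 95% critical share of the range, and chance flags about 1 group in 20. Of these, 7 were Pparα hep-/- CTRL replicate 1, with Slco1a1 at 8.89, Abcc4 at 9.05, Slc22a27 at 7.73, Slc22a29 at 8.63, Abcc6 at 12.99, Slco1b2 at 15.06 and Slco2b1 at 13.16. WT CTRL replicate 6 stood apart for Slco1a1 (7.69) and Abcc4 (9.88), and WT HFD replicate 6 for Slco1a1 (9.34). Pparα-/- CTRL replicate 3 did so for Abcc2 (11.34), Slc22a3 (6.06) and Slco1b2 (15.69). These 4 mice had array weights below 0.5. The other flagged mouse was WT HFD replicate 3 for Slco2b1 (14.00).

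The diet response differed between genotypes, by limma's test of the difference, for 6 named genes. For Pparα-/- minus WT mice the difference was 1.39 for Abcc12, 0.88 for Slc22a26, -0.29 for Abcc6, -1.04 for Slc22a3 and -1.63 for Slc22a7. For Pparα hep-/- minus WT mice it was -0.71 for Slc22a3, lost in 3 of 10 alternative fits (-0.58 to -0.71). Between the deletion lines, Pparα-/- minus Pparα hep-/-, it was 0.91 for Slc22a26 and -0.29 for Abcc2, the latter lost in 6 of 10 alternative fits (-0.23 to -0.30).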

How the results depend on the processing

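Of 180 fitted values (15 named genes in 12 comparisons) 69 were called, and 34 of these kept direction and call in each of 10 alternative fits. Array weights mattered most. Without them the number of genes called on HFD against CTRL was 2 in WT (8 with weights), 0 in Pparα hep-/- (10) and 9 in Pparα-/- mice (15). On HFD it was 7 for Pparα hep-/- against WT (18), 13 for Pparα-/- against WT (23) and 4 between the deletion lines (7). For the differences of diet responses it was 0 for Pparα hep-/- minus WT (3), 4 for Pparα-/- minus WT (8) and 0 for Pparα-/- minus Pparα hep-/- mice (2). Beside these 0 calls of limma, 5, 4 and 7 genes, in that order, had an unadjusted p of at most 0.05. The share of all probes called without weights is not at hand. The smaller counts can therefore not be read as particular to the transporters.

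HFD in Pparα hep-/- mice called 6 genes without the wash term and 4 without the filter on dim probes, which tests more probes. The response of Pparα hep-/- minus WT mice called 5 genes with 75th percentile scaling, 1 without the filter, 6 with the mean of a gene's probes and 6 without the 5 arrays of low weight, and that of Pparα-/- minus WT called 5 without the filter. Between the deletion lines the responses differed in 1 gene with 75th percentile scaling, in 1 in the authors' table, in 1 without the 5 arrays, and in 0 with the slide as a block, without the wash term or without the filter (7 at an unadjusted p of at most 0.05 by limma in each). Over all 33323 probes, the response of Pparα hep-/- minus WT mice called 4440 with 75th percentile scaling, against 3472 in the fit reported above. Between the deletion lines that scaling called 950 probes, against 1139. The authors' log2 values called 1176 of 32816 probes there. For the other alternatives named here the share of all probes called is not at hand. Those counts can therefore not be read as particular to the transporters. The causes of these shifts were not tested.

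Deviations of mice with the same replicate number had a median r of 0.02 over 120 pairs (-0.45 to 0.69), 35 of them over 0.1. Pairs of other numbers had a median r of -0.0023. For 11 of 48 arrays the most alike array was one of their own number. Whether some numbers mark a shared factor cannot be told from these values. A replicate block called 106 genes summed over the comparisons against 118 without it, with 1 for the response of Pparα hep-/- minus WT and 0 for Pparα-/- minus Pparα hep-/- mice (6 at an unadjusted p of at most 0.05). The share of all probes called with this block is not at hand.

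In the first wash batch 4 called values had the other sign, Slco1a1 on HFD in Pparα hep-/- mice (0.37) and against WT (0.067), Slc22a29 (-0.10) and Abcc12 (-0.15) on HFD in Pparα hep-/- mice. Leaving out the 5 arrays of low weight, a choice made after seeing the data, turned these back (-0.83, -0.71, 1.06 and 0.44), and the Slc22a26 response of Pparα-/- minus WT mice then had the other sign in that batch (-0.12). With the mean of its probes Slco2b1 turned in Pparα-/- against WT mice on CTRL (-0.0247) and HFD (-0.10) and in Pparα hep-/- mice on HFD (-0.0525), and with 75th percentile scaling in Pparα-/- mice on HFD (-0.0034). That scaling moved the share of calls over all probes that were higher from 46.8% to 35.5% for HFD in Pparα hep-/- and from 49.3% to 35.6% in Pparα-/- mice. It moved it from 49.7% to 37.8% for Pparα hep-/- and from 47.6% to 37.9% for Pparα-/- against WT on HFD. For the responses minus that of WT it moved it from 44.4% to 31.2% and from 48.3% to 29.9%. For HFD in WT mice the share rose, from 45.9% to 50.9%. Dim probes limit Slc22a26, Slc22a27, Slc22a29 and Abcc12, whose signals lay near background on CTRL, and Slco1c1, whose signal did so on both diets.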
